A study of Mus musculus with 47 samples.

Results

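Microglia without a functional Apoe gene (Apoe-/-, called KO) were compared with wild-type microglia (WT), both left untreated. The comparison holds 10 of the 47 libraries of a study of Apoe and human APOE genotypes, 5 KO and 5 WT, chosen by their labels and not by any measured value. All were polyadenylated RNA of primary forebrain microglia of C57BL/6 mice, grown in DMEM with 10% fetal bovine serum and collected at 24 h without a challenge. KO cells came from the Jackson Laboratory model 002052, in which Apoe is disrupted in the germ line and so in all cell types, and WT cells from model 000664, a separately kept line. The labels do not say whether the 5 libraries of a genotype were prepared from different mice, and the p-values therefore reflect variation among libraries that could be partly technical. The age of the mice is not given in the labels. Groups read beside them were 5 KO and 5 WT libraries given myelin for 3 h and collected at 24 h, and 5 untreated libraries with 1 disrupted Apoe allele (Apoe+/-, called Het), labelled with the same model as KO.

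Apolipoprotein E is the main lipid carrier made in the brain. Glia load it with cholesterol and phospholipid through ABC transporters, and cells take up the particles through lipoprotein receptors. Microglia are the resident macrophages of the brain. They digest debris in lysosomes, and lipid they cannot digest is exported or stored in droplets. Apoe is among the genes that rise when microglia leave the resting state around damage.

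Levels are scaled TPM, the authors' TPM (transcript abundance normalised for length and library) rescaled to the nuclear protein-coding genes, and fold changes are log2 differences of KO minus WT on the scale of log2(scaled TPM + 1). Protein-coding genes held 16.4% to 24.9% of TPM in KO libraries and 20.5% to 27.3% in WT libraries, a difference of -2.34 percentage points that did not pass a two-sided exact permutation test (p = 0.246). Most of the rest was a single gene outside that total, Gm23935, at 71.9% to 81.2% in KO libraries and 69.4% to 76.7% in WT libraries. Log2 levels correlated at 0.977 to 0.990 among KO libraries, 0.979 to 0.991 among WT libraries and 0.838 to 0.900 between a KO and a WT library. The microglial label was met. The 14 core microglial and macrophage genes were all tested and summed to between 88780 and 99550 scaled TPM in KO libraries and between 68060 and 82330 in WT libraries. KO library 5 stood apart in connective tissue genes, as given with those genes below.

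Apoe itself (ENSMUSG00000002985.16, mm10 chromosome 7, 19696109 to 19699188) was measured first. It was at 84.01, 69.2, 69.8, 72.7 and 78.5 scaled TPM in KO libraries, against 57652, 64459, 60995, 45007 and 57511 in WT libraries. The groups were far apart, and the KO libraries kept a low remainder. The log2 fold change was -9.55 ± 0.09 (SE), and the two-sided exact permutation test gave 0.00794, the smallest p that 5 against 5 libraries allow.

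The difference between the lines was broad. Of 9373 genes tested with limma, 5861 (62.5%) passed a Benjamini-Hochberg adjusted p of 0.05, 2807 higher (29.9%) and 3054 lower (32.6%) in KO. A gain of more than 2-fold was seen in 907 genes (9.68%) and a loss of more than 2-fold in 739 (7.88%). KO and WT libraries did not overlap in 4609 genes (49.2%). The median log2 fold change was -0.0178, and the median size without sign was 0.329. A share of called members near 62.5% is therefore the background for each gene group that follows.

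The genes next to Apoe on chromosome 7 include Apoc1 and Apoc2, which encode small apolipoproteins of the same cluster. Apoc1 (chromosome 7, 19689481 to 19692660) was at 18.6, 31.1, 19.996, 23.8 and 29.1 scaled TPM in KO libraries, against 88.4, 96.8, 108, 82.8 and 104 in WT libraries. Apoc2 (chromosome 7, 19671579 to 19677941), whose protein activates lipoprotein lipase, was at 23.5, 29.3, 20.7, 28.2 and 34.03 in KO libraries, against 149, 157, 206, 173 and 185 in WT libraries. For both genes every KO library lay below every WT library (Apoc1 log2 fold change -1.95 ± 0.13 (SE), limma adjusted p = 7.24e-08; Apoc2 log2 fold change -2.65 ± 0.13 (SE), limma adjusted p = 3.42e-09). Nectin2, an adhesion molecule, was lower in KO as well (log2 fold change -1.47 ± 0.08 (SE), limma adjusted p = 7.51e-09). On the other side, Tomm40, a pore of the mitochondrial outer membrane, rose (log2 fold change 1.71 ± 0.22 (SE), limma adjusted p = 2e-05). Its WT libraries were uneven, at 47.7, 30.2, 21.2, 15.7 and 20.7 scaled TPM beside 82.6, 86.5, 87.7, 78.9 and 86.2 in KO. Relb and Bcl3, both of the NF-kB family or its partners, rose with log2 fold changes of 1.75 and 1.80 (adjusted p = 2.66e-07 and 1.24e-05). Within 1 Mb of Apoe 19 of 28 tested genes were called (67.9%), and within 5 Mb 39 of 58 (67.2%), 20 higher and 19 lower, shares close to the 62.5% of all genes. Called genes within 5 Mb that rose included Tmem160, Irf2bp1, Bloc1s3, Inafm1, Kcnn4, Bcl3, Relb, Tomm40, Strn4, Ppp1r37, Clasrp, Slc1a5, Mark4, Bbc3, Calm3, Trappc6a, Ccdc9, Zfp61 and Ethe1, of which Calm3 turned to -0.11 and was not called when libraries were centred by GC content. Those that fell, beside Apoe, were Ehd2, Apoc2, Apoc1, Plaur, Pvr, C5ar1, Nectin2, Dmpk, Ccdc61, Sae1, Qpctl, Snrpd2, Selenow, Cd3eap, Zfp235, Meis3, Prkd2, Ppp5c and Ercc1.

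**Figure D1:**
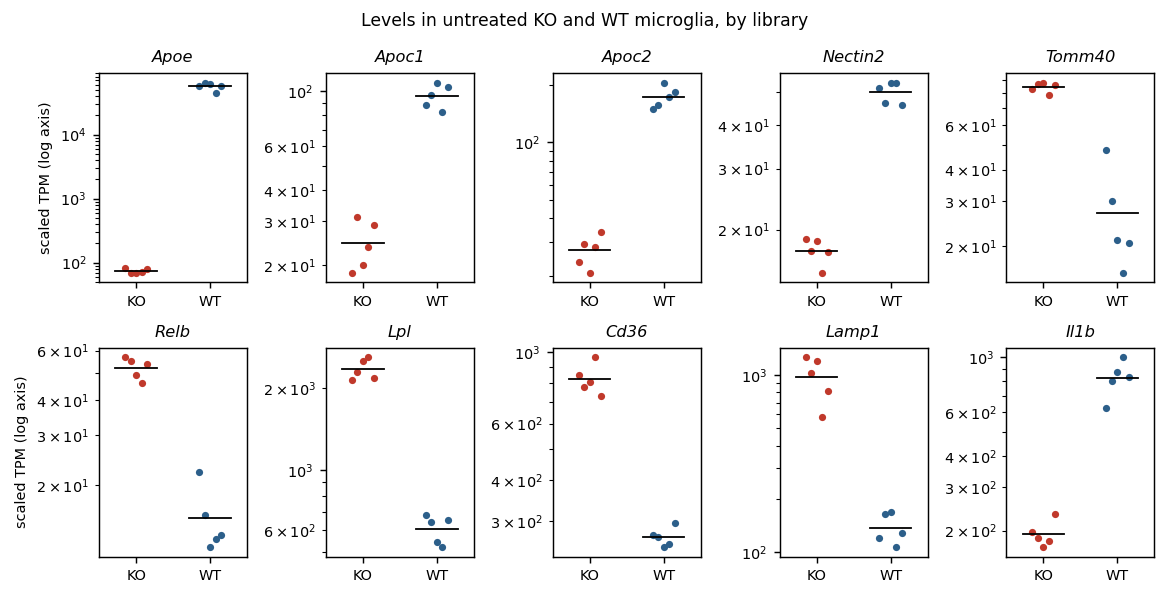
Scaled TPM (log axis) of 10 genes in the 5 untreated KO libraries (left) and the 5 untreated WT libraries (right) of each panel; each point is a library and the bar is the mean. KO and WT libraries do not overlap in any of the 10 panels.

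Among lipoprotein genes, 11 of 19 tested members rose and 5 fell (median log2 fold change 0.449). Centring each library within bins of the GC content of transcript starts, an alternative chosen after seeing the data, left 9 higher and 6 lower with a median of 0.135. Lpl, the lipase that frees fatty acids from lipoproteins (chromosome 8, 68880491 to 68907448), was at 2145, 2282, 2512, 2593 and 2171 scaled TPM in KO libraries, against 683, 641, 543, 520.1 and 654 in WT libraries. Cd36, a scavenger receptor that takes up oxidised lipoproteins and fatty acids (chromosome 5, 17781690 to 17888801), was at 850.4, 776, 809, 964 and 730.1 in KO libraries, against 271, 266, 248, 254 and 294 in WT libraries. Each was high in all 5 KO libraries, with no overlap (Lpl log2 fold change 1.95 ± 0.08 (SE), limma adjusted p = 1.69e-09; Cd36 log2 fold change 1.62 ± 0.07 (SE), limma adjusted p = 2.3e-09). Lipa, the lysosomal lipase of this list that frees cholesterol from its esters, averaged 772 ± 49.4 scaled TPM in KO and 350.4 ± 27.3 in WT (SD, n = 5 each; adjusted p = 1.13e-08). Lrp10, a lipoprotein receptor-related protein, rose by 2.23 on the log2 scale (adjusted p = 1.08e-08). The steepest fall of the list was Apod, a lipocalin that connective tissue cells also make, at 0.422, 2.04, 0.289, 1.46 and 14.8 in KO libraries and 43.2, 38.5, 43.4, 31.1 and 32.4 in WT libraries (adjusted p = 5.06e-05). Apod and the genes Nr1h3, Abca1 and Abcg1 of the next paragraph are outside the naming rule and were picked after their values were seen.

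Liver X receptors sense oxidised sterols and turn on cholesterol export. Of their list, 11 of 18 tested members rose and 4 fell (median log2 fold change 0.429). Nr1h3, the receptor LXR-alpha itself, averaged 17.2 ± 2.04 scaled TPM in KO and 7.93 ± 0.881 in WT (log2 1.02, adjusted p = 1.97e-06). The 2 transporters that load lipid onto particles moved apart. Abcg1 was at 12.3, 12.5, 11.5, 12.2 and 11.3 scaled TPM in KO libraries and 6.09, 6.52, 6.08, 5.38 and 6.44 in WT libraries, while Abca1 was at 57.8, 55.6, 53.5, 53.02 and 55.2 in KO libraries and 85.5, 77.2, 60.5, 91.6 and 80.9 in WT libraries. Neither overlapped between genotypes, one up and the other down (Abcg1 log2 fold change 0.87 ± 0.08 (SE), limma adjusted p = 1.02e-06; Abca1 log2 fold change -0.50 ± 0.09 (SE), limma adjusted p = 0.000447). Rxrb, the partner receptor, Myo5a, a motor protein, and Mylip, a ubiquitin ligase, rose by 1.35, 1.32 and 0.91. Ch25h, which makes 25-hydroxycholesterol, fell (log2 fold change -1.41 ± 0.13 (SE), limma adjusted p = 7.7e-07). Of the enzymes of cholesterol synthesis, 10 of 21 tested members rose and 2 fell (median log2 fold change 0.155), and none of those called reached 2-fold. Fdps, Ebp and Tm7sf2, enzymes of the pathway, rose by 0.24, 0.33 and 0.43, and Lbr, a reductase of the nuclear envelope, fell by 0.82.

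Of the genes that sense sterols and bring them out of lysosomes, 7 of 15 tested members rose and 1 fell (median log2 fold change 0.188). Npc1, the lysosomal cholesterol exporter, averaged 66.9 ± 1.69 scaled TPM in KO and 37.7 ± 4.65 in WT (log2 0.82, adjusted p = 2.14e-06). Insig1, which holds back sterol synthesis, rose by 0.96. Fatty acid synthesis had 9 tested members, of which 2 rose and 3 fell. The desaturases Fads2 and Scd2 fell by 1.28 and 0.92 and the synthase Fasn by 0.91, while the elongase Elovl1 rose by 0.33. Of lipid droplet genes, 10 of 17 tested members rose and 4 fell (median log2 fold change 0.312). Plin2, the coat protein of droplets, was at 1985, 1889, 2026, 2109 and 2003 scaled TPM in KO libraries, against 1368, 1404, 1405, 1370.0 and 1514 in WT libraries, a gain without overlap (log2 fold change 0.50 ± 0.05 (SE), limma adjusted p = 9.52e-07). Hilpda and Mgll, which act on droplet lipolysis, fell by 0.87 and 1.23 on the log2 scale. Pparg, a lipid-sensing nuclear receptor, rose (log2 fold change 2.55 ± 0.13 (SE), limma adjusted p = 4.92e-09), with means of 31.9 in KO and 4.65 in WT. Angptl4, an inhibitor of lipoprotein lipase and a known PPAR target, fell (log2 fold change -1.51 ± 0.13 (SE), limma adjusted p = 6.59e-07).

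Lysosomal genes were mostly higher in KO. Of the lysosomal hydrolases, 22 of 31 tested members rose and 5 fell (median log2 fold change 0.336), and of the proton pump and membrane proteins, 18 of 28 tested members rose and 1 fell (median log2 fold change 0.306). Lamp1, the main lysosomal membrane glycoprotein (chromosome 8, 13159161 to 13175338), was at 1269.9, 1027, 1208, 577 and 812 scaled TPM in KO libraries, against 120.3, 163, 167, 106 and 128 in WT libraries. KO libraries were uneven, and all lay above WT (log2 fold change 2.79 ± 0.20 (SE), limma adjusted p = 1.03e-07). Naglu, which degrades heparan sulfate, rose by 2.18, and Hexa, which degrades gangliosides, by 0.62 (adjusted p = 2.91e-07 and 1.38e-07). Atp6v1b2, a subunit of the pump that acidifies lysosomes, averaged 455 ± 26.9 scaled TPM in KO and 272 ± 11.2 in WT (adjusted p = 8.85e-08). Tfeb, the transcription factor of lysosome genes, was at 40.1, 45.3, 38.7, 37.96 and 41.4 in KO libraries and 17.5, 14.01, 12.9, 12.8 and 15.8 in WT libraries, without overlap (log2 fold change 1.42 ± 0.09 (SE), limma adjusted p = 3.99e-08). The abundant proteases Ctsd and Ctsb gained 0.43 and 0.46 while Ctsl fell by 0.39. With the same centring by GC content, 22 rose and 3 fell among the hydrolases, and 24 rose and 1 fell among the pump and membrane genes. The medians of both lists were close to that of the core microglial genes given below (0.317). The fibroblast markers fell between the same libraries, and the part of cell composition in the lysosomal gains was not tested.

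TFEB binds CACGTG, the core of the motif shared by lysosomal genes, and 3 promoters of members that rose are shown with each CACGTG in capitals. They are the 250 bases before the RefSeq start, 5′ to 3′, GRCm38.p6, Lamp1 at chr8:13158911-13159160 (+ strand), Mcoln1 at chr8:3500269-3500518 (+ strand) and Atp6v0b at chr4:117887330-117887579 (- strand). Mcoln1 is the lysosomal calcium channel and Atp6v0b a pump subunit, and all 3 were picked because they hold the motif.
Lamp1: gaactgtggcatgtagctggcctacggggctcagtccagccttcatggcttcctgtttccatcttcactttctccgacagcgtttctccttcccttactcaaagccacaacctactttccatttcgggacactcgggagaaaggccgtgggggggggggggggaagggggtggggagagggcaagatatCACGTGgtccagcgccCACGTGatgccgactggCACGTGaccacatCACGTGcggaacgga
Mcoln1: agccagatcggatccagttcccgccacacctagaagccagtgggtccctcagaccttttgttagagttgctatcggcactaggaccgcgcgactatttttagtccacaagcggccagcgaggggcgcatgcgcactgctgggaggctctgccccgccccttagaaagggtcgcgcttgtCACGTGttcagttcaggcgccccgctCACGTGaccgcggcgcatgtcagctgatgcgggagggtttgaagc
Atp6v0b: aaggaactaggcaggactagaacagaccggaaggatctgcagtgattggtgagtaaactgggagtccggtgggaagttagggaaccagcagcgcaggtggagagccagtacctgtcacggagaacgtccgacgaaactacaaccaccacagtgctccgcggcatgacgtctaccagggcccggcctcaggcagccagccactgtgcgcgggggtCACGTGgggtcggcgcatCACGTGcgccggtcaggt
Lamp1 held 4 such motifs and the others 2 each. CACGTG reads the same on both strands. It was found in 6 of 25 hydrolase promoters with a match in the table (24.0%) and in 4 of 22 pump and membrane promoters (18.2%), against 659 of 7459 tested genes (8.83%) and 6.06% of all 32619 promoters. Of the 10 members with the motif, Lamp1, Mcoln1, Naglu, Atp6v0b, Ctsd, Glb1, Atp6v1a and Gla rose, Ctsl fell, and Ctsf did not pass. By list, 4 of 6 hydrolases and 4 of 4 pump and membrane genes with the motif rose, beside 22 of 31 and 18 of 28 of all tested members. The direction of the 659 tested genes with the motif was not counted. Mcoln1 averaged 132 ± 9.71 scaled TPM in KO and 41.03 ± 11.8 in WT (log2 1.70), and Atp6v0b 1338 ± 38.8 scaled TPM in KO and 917 ± 51.4 in WT (log2 0.55). These matches describe the letters in the window and were not tested as binding sites.

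Of the core microglial genes, 9 of 14 tested members rose and 1 fell (median log2 fold change 0.317). Cd68, a lysosomal protein of macrophages, averaged 3789 ± 207 scaled TPM in KO and 2040.1 ± 120.4 in WT (log2 0.89). Tyrobp, the signalling adaptor of TREM2, and Spi1, the lineage factor PU.1, rose by 0.67 and 0.72. Csf1r, the survival receptor, and C1qa did not pass (log2 0.13 and 0.10, adjusted p = 0.148 and 0.216). In bulk RNA, fewer cells of a type and less RNA per cell cannot be told apart. Homeostatic genes, high in resting microglia in the brain, went both ways: 9 of 21 rose and 5 fell. Jun, a transcription factor, rose by 1.65. Tmem119, a microglial surface marker, was at 30.8, 27.02, 27.96, 27.6 and 36.04 in KO libraries and 48.4, 48.2, 46.6, 47.4 and 39.8 in WT libraries, low in both and lower in KO (log2 fold change -0.61 ± 0.09 (SE), limma adjusted p = 5.19e-05). The purinergic receptor P2ry13 fell by 1.09. Sparc, a matrix protein of this list that fibroblasts also make, fell (log2 fold change -2.88 ± 0.27 (SE), limma adjusted p = 1.08e-06). The genes of disease-associated microglia, known from plaque-bearing mice, also split, with 13 of 24 up and 7 down, the targeted Apoe among those 7. Trem2, the lipid-sensing receptor of that state, was at 1389, 1697, 1535, 1459 and 1572 scaled TPM in KO libraries, against 692, 789, 836, 692 and 832 in WT libraries, a gain of 0.99 (adjusted p = 1.17e-07). Lgals3, a lectin of damaged lysosomes, rose by 0.93, and Gpnmb by 0.33. Spp1, the secreted protein osteopontin, went the other way, at 8527, 8392, 8469, 9440.5 and 9731 in KO libraries and 17295, 16731, 16585, 14741 and 16658 in WT libraries (log2 fold change -0.88 ± 0.06 (SE), limma adjusted p = 8.65e-08). Csf1, the growth factor, fell by 2.62 and Axl, a receptor for dying cells, by 1.81. Csf1r, C1qa, Tmem119, Gpnmb, Spp1 and the cathepsins above were picked after their values were seen.

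**Figure D2:**
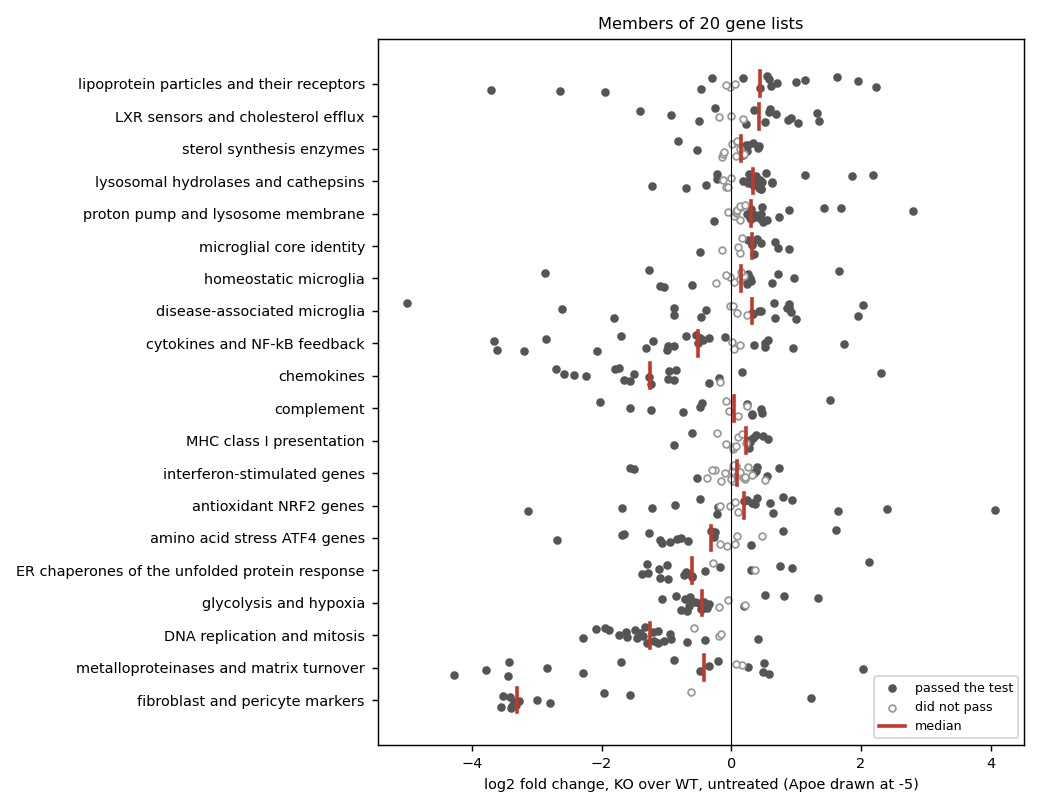
Log2 fold changes (KO over WT, untreated) of the tested members of 20 gene lists; each point is a gene, filled where it passed limma's test, and the red bar is the list's median. Chemokines, DNA replication and fibroblast markers lie mostly below 0 (medians -1.26, -1.25 and -3.3), lysosomal lists mostly above it.

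Inflammatory genes were lower in KO. Of the cytokines and NF-kB feedback genes, 6 of 27 tested members rose and 18 fell (median log2 fold change -0.516), and of the chemokines and their receptors, 2 of 20 tested members rose and 17 fell (median log2 fold change -1.26), beside a median of -0.0178 over all genes. Il1b, the pyrogenic cytokine (chromosome 2, 129364570 to 129371139), was at 197, 187, 171, 181 and 234 scaled TPM in KO libraries, against 627, 805, 875, 1003 and 831 in WT libraries. Il6 was at 0.365, 0.222, 0.0553, 0.136 and 1.37 in KO libraries, against 16.6, 16.4, 15.9, 16.9 and 12.9 in WT libraries. Every KO library lay below every WT library, and Il6 was close to 0 in KO (Il1b log2 fold change -2.08 ± 0.11 (SE), limma adjusted p = 1.12e-08; Il6 log2 fold change -3.61 ± 0.20 (SE), limma adjusted p = 1.01e-08). Ptgs2, the inducible cyclooxygenase, was at 16.2, 10.6, 13.6, 12.4 and 18.8 in KO libraries and 205, 164, 181, 206 and 193 in WT libraries (log2 fold change -3.66 ± 0.13 (SE), limma adjusted p = 6.11e-10). Il1a and the cytokine brake Socs3 fell by 3.20 and 2.86, Tnf by 1.32 and Nfkbia, the inhibitor that NF-kB induces, by 0.98. The exceptions that rose were Relb, Il18bp, Casp1, Tgfb1, Tnfaip2 and Nfkb2. Among chemokines, the neutrophil attractant Cxcl2 was at 73.4, 84.1, 75.1, 78.4 and 78.6 in KO libraries and 338, 397, 468, 474 and 453 in WT libraries (log2 fold change -2.43 ± 0.09 (SE), limma adjusted p = 6.79e-10). Ccr1, a chemokine receptor, Ccrl2, a chemerin-binding receptor, and Ccl5, a T-cell attractant, fell by 2.70, 1.73 and 1.56, and Ccl2, the monocyte attractant, by 1.24. Cxcl14 and Cxcl16 rose. Il1b, Tnf, Nfkbia, Cxcl1, Ccl2 and the genes of both lists that rose, other than Relb, were picked after their values were seen. Fibroblasts make several of these proteins too, and the fibroblast markers given below fell between the same libraries; their part in the result was not tested.

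NF-kB binds a motif of 10 bases. The form searched, GGGA then any base then TTTCC, on either strand, is shown in capitals in the 250 bases before the RefSeq start of 3 genes that fell, 5′ to 3′, GRCm38.p6. They are Il6 at chr5:30012864-30013113 (+ strand), Cxcl2 at chr5:90903649-90903898 (+ strand) and Nfkbia at chr12:55492648-55492897 (- strand).
Il6: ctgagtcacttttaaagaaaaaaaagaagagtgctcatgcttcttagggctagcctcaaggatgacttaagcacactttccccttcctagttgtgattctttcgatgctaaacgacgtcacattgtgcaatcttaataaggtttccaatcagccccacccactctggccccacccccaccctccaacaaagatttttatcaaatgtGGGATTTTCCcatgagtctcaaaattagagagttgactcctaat
Cxcl2: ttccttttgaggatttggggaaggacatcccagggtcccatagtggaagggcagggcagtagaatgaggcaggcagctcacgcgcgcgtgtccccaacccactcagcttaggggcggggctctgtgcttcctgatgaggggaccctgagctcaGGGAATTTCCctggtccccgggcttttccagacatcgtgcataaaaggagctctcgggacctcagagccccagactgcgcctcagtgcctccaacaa
Nfkbia: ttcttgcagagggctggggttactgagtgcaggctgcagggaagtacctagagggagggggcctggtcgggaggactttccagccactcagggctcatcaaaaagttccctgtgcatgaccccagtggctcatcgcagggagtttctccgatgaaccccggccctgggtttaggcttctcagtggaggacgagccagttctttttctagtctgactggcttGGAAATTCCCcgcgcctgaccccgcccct
The 3 were picked because they hold the motif, and in Nfkbia it lies on the opposite strand. Each held 1 motif, starting 44, 97 and 29 bases before the start. The form was found in 2 of 23 cytokine and feedback promoters with a match in the table and in 2 of 14 chemokine promoters, against 25 of 7459 tested genes (0.34%) and 0.36% of all 32619 promoters. The 4 members with it, Il6, Cxcl2, Cxcl1 and Nfkbia, had log2 fold changes of -3.61, -2.43, -2.24 and -0.98. Of all tested members, with or without the form, 18 of 27 cytokine and feedback genes and 17 of 20 chemokine genes fell. The direction of the 25 tested genes with the form was not counted. Other forms of the motif were not searched, and the matches were not tested as binding sites.

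Innate receptors and antigen presentation genes went in both directions. Of complement genes, 6 of 16 tested members rose and 6 fell (median log2 fold change 0.0351). The anaphylatoxin receptors went opposite ways. C5ar1 was at 290.2, 247, 277, 309 and 289.6 scaled TPM in KO libraries, against 798, 800.4, 856, 842 and 899 in WT libraries (log2 fold change -1.57 ± 0.06 (SE), limma adjusted p = 8.96e-10), while C3ar1 rose by 0.46 (adjusted p = 5.84e-06). Cfp, the complement activator properdin, fell by 1.24, and Vsig4, a complement receptor of tissue macrophages, was at 23.9, 23.01, 29.9, 30.2 and 27.04 in KO libraries and 6.71, 9.49, 11.7, 6.29 and 10.1 in WT libraries, higher in KO (log2 fold change 1.52 ± 0.15 (SE), limma adjusted p = 1.98e-06). Of the pattern and Fc receptors, 9 of 22 tested members rose and 5 fell (median log2 fold change 0.0821), with the inhibitory Fcgr2b, the activating Fcgr3 and the lipopeptide receptor Tlr2 lower by 1.14, 0.54 and 0.67. Of the clearance genes, 6 of 15 tested members rose and 6 fell (median log2 fold change -0.0257): beside Cd36, Gas6, the ligand of Axl, rose by 2.19, and the bridging protein Mfge8 fell by 0.87. Of 29 interferon-stimulated genes 5 rose and 3 fell, a called share under the background of 62.5%, with Stat2 at 0.55, Irf1 at -0.53 and Cxcl10 at -1.49. Of MHC class I genes, 9 of 19 tested members rose and 2 fell (median log2 fold change 0.233); the immunoproteasome subunit Psmb8 and its activator Psme1 rose by 0.57 and 0.49, and the chaperone Calr fell by 0.61. Only 4 of 12 MHC class II genes passed the filter on low values, 1 higher and 2 lower. Of 25 genes near microglial Alzheimer risk loci 7 rose and 7 fell. Beside Trem2 and Spi1, Cd33, a sialic acid receptor, had a log2 fold change of -1.38 and Ptk2, a kinase of focal adhesions counted in the list beside its risk-linked relative Ptk2b, -1.85, while Grn, the lysosomal progranulin, rose by 0.54. Cd33 and Grn were picked after their values were seen.

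Genes of stress and metabolism also differed. Of the NRF2 list, which holds targets of that factor, the factor itself and its regulator, 12 of 23 tested members rose and 7 fell (median log2 fold change 0.196). Gclm, the modifier subunit of glutathione synthesis, was at 699.6, 428, 579.9, 293 and 425 scaled TPM in KO libraries, against 27.3, 25.6, 29.3, 23.2 and 29.1 in WT libraries (log2 fold change 4.07 ± 0.18 (SE), limma adjusted p = 2.3e-09). Gsr, which regenerates glutathione, and Gclc, the catalytic subunit of the Gclm enzyme, rose by 2.40 and 1.65, while Gss, which completes glutathione synthesis, had a log2 fold change of -1.22. Gclc and Gss were picked after their values were seen. Nqo1, a quinone reductase, was at 14.2, 13.7, 18.6, 12.6 and 28.3 in KO libraries and 140.0, 137, 144, 198 and 161 in WT libraries, lower in all 5 (log2 fold change -3.13 ± 0.19 (SE), limma adjusted p = 2.07e-08). Hmox1, another target of the same factor, picked after its values were seen, did not pass (log2 0.10, adjusted p = 0.102). Of the ATF4 genes, which make and import amino acids or belong to the same stress response, 3 of 21 tested members rose and 13 fell (median log2 fold change -0.311). Phgdh and Psat1, of serine synthesis, Asns, of asparagine synthesis, and Slc7a11, the cystine importer, fell by 2.69, 1.10, 0.95 and 1.68. Of the list of endoplasmic reticulum chaperones, which also holds signalling genes of their stress response, 4 of 19 tested members rose and 13 fell (median log2 fold change -0.612). Pdia4, Pdia6 and Hsp90b1 fell by 1.37, 1.28 and 1.10, and Edem1, which clears misfolded proteins, rose by 2.13. Of the glycolysis and hypoxia genes, 4 of 22 tested members rose and 15 fell (median log2 fold change -0.458); Ldha, which makes lactate, averaged 665 ± 23.4 scaled TPM in KO and 1392 ± 111 in WT (log2 -1.06), and Eno1, Pgk1 and the glucose transporter Slc2a1 fell by 0.63, 0.56 and 0.78. Of 27 nuclear genes of the respiratory chain, 2 rose and 8 fell, none by 2-fold, and with centring by GC content 4 rose and 3 fell. The chaperone list summed to 2021 to 2238 scaled TPM in KO and 3294 to 3689 in WT. Glycolysis and hypoxia summed to 9607 to 10370 and 11870 to 13050, and ATF4 genes to 1389 to 1447 and 1706 to 1869. Untreated Het libraries were scaled with all 47 libraries. The 3 with at least 6% of TPM in coding genes held 1845 to 2377, 9628 to 10110 and 1575 to 1708. These lists fell between the same libraries as the fibroblast markers given below, whose part was not tested.

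Of the genes of DNA replication and mitosis, 1 of 26 tested members rose and 22 fell (median log2 fold change -1.25), with 18 of the 22 lower by more than 2-fold. Rrm2, which makes deoxynucleotides, was at 13.9, 17.2, 16.01, 15.7 and 13.6 scaled TPM in KO libraries, against 74.9, 72.8, 83.4, 84.2 and 77.5 in WT libraries (log2 fold change -2.29 ± 0.08 (SE), limma adjusted p = 5.09e-10). The mitotic activator Cdc20 fell by 2.09, Rrm1 by 1.46 and the tubulin Tubb5 by 1.33. Summed over the list, KO libraries held between 615 and 720.5 scaled TPM and WT libraries between 1295 and 1493. Immediate early genes, switched on within minutes of a stimulus, were lower in 13 of 19 and higher in 5. Ier3 averaged 106 ± 15.8 scaled TPM in KO and 611 ± 51.3 in WT (log2 -2.52), Btg2 and Junb fell by 1.17 and 0.75, and Ier5, Jund and Dusp1 rose by 2.17, 3.27 and 2.19. Jund and Dusp1 are outside the naming rule and were picked after their values were seen. Both groups moved between the same libraries as the fibroblast markers, whose part in the result was not tested.

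Markers of other cells were read as a list. Of 19 fibroblast and pericyte markers, 14 were tested, and 12 fell and 1 rose (median log2 fold change -3.3). The list summed to between 329.5 and 1291 scaled TPM in KO libraries and between 3139 and 3916 in WT libraries, and no marker was at 0 in all 10. Acta2, smooth muscle actin, was at 134, 104, 145, 92.2 and 144 in KO libraries, against 1326, 1249, 1467, 1352 and 1190.0 in WT libraries (log2 fold change -3.42 ± 0.12 (SE), limma adjusted p = 6.11e-10). Col3a1 was at 5.04, 4.90, 6.50, 4.04 and 179 in KO libraries, against 155, 108, 113, 182 and 83.8 in WT libraries, and Dcn at 4.84, 6.21, 7.54, 5.13 and 155 in KO libraries, against 137, 131, 139, 132 and 111 in WT libraries. For both matrix genes KO library 5 lay in or above the WT range while the other 4 KO libraries were far below. With that library the log2 fold changes were -3.38 and -3.35 (adjusted p = 0.00266 and 0.00146), and without it -4.36 and -4.25 (4.02e-09 and 2.18e-10). Without KO library 5, 13 markers fell and 1 rose, while 18 cytokine genes, 17 chemokine genes and 23 replication genes fell, so those counts do not rest on it. Tagln, Pdgfrb and Col5a1 fell by 3.52, 3.28 and 3.31, and Igfbp4 rose by 1.23. Col3a1, Dcn and Igfbp4 were picked after their values were seen. Matrix-degrading genes followed in part, with 11 of 18 lower and 5 higher. Mmp2 stood at -3.44 and Mmp13 at -2.29 on the log2 scale. Endothelial markers had 3 of 12 tested, 2 lower and 1, Pecam1, higher (log2 0.61, adjusted p = 0.000419), summing to between 19.7 and 26.2 scaled TPM in KO libraries and between 48.7 and 56.4 in WT libraries. Astrocyte markers summed to 158.2 to 225.7 in KO libraries and 189.1 to 256.5 in WT libraries, and neuron markers to 11.2 to 16.9 in KO libraries and 21.3 to 28.3 in WT libraries. Border macrophage and monocyte markers had 3 of 8 higher and 4 lower, Plac8 of blood myeloid cells by 2.61, and summed to 2258 to 2660 in KO libraries and 1893 to 2297 in WT libraries. The sole lymphoid marker tested, Cd4, rose by 1.15.

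**Figure D3:**
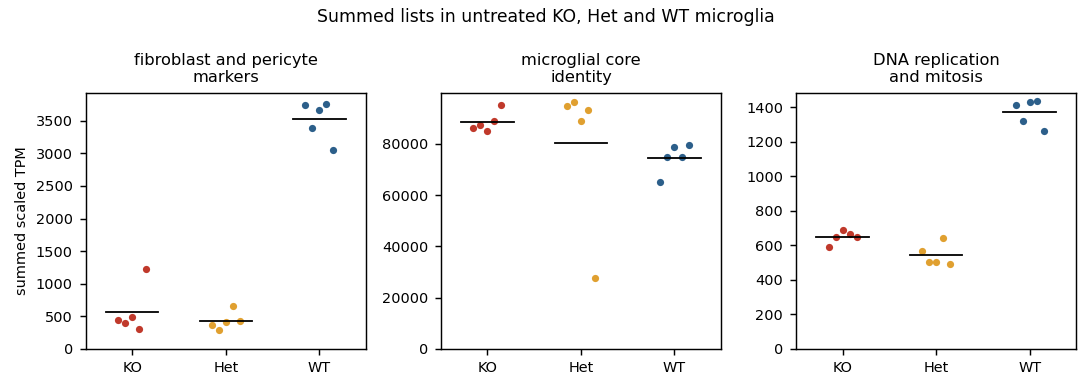
Summed scaled TPM of 3 gene lists in the untreated KO, Het and WT libraries, on a scaling of all 47 libraries; each point is a library, the bar is the mean and axes start at 0. Fibroblast marker sums are 311 to 1232 in KO, 289 to 664 in Het and 3055 to 3759 in WT.

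The steepest falls after Apoe, among called protein-coding genes without overlap and with a mean of at least 10 scaled TPM, were Mcpt8, Akr1c18, Mmp3, Cthrc1, Tnc, Inhba, Thbs2, Fbln2, Timp1, Galnt18 and Aebp1, with log2 fold changes between -4.41 and -3.72. Timp1, an inhibitor of metalloproteinases (chromosome X, 20870166 to 20874735), was at 256, 230.3, 233, 155 and 490.3 scaled TPM in KO libraries, against 3873, 3539, 3969.8, 3312 and 2917 in WT libraries (log2 fold change -3.78 ± 0.23 (SE), limma adjusted p = 2.26e-08). Inhba, the activin A subunit, averaged 29.9 ± 8.82 scaled TPM in KO and 448 ± 54.97 in WT, and Tnc, tenascin C, 15.7 ± 4.41 scaled TPM in KO and 260.4 ± 42.6 in WT. Mcpt8, a protease of basophils and mast cells, was at 2.28, 2.33, 2.09, 0.609 and 1.02 in KO libraries, against 53.5, 56.3, 58.3, 55.8 and 44.7 in WT libraries. Mmp3 was at 8.35, 21.3, 19.4, 13.1 and 103 in KO libraries and 511, 421, 425, 508 and 359 in WT libraries, low in KO. Without KO library 5, the highest of its group for both genes, the log2 fold changes were -4.82 for Mmp3 and -4.02 for Timp1. The 12 steepest gains were Tmem160, Scand1, Gclm, 0610012G03Rik, Taf10, Plbd2, Tmem221, H2-Ke6, Rab5if, Rnf128, Bag1 and Rala, with log2 fold changes between 4.23 and 3.27. Tmem160 (chromosome 7, 16452779 to 16455494), a mitochondrial membrane protein, was at 329.8, 369, 337, 304 and 391 in KO libraries, against 24.4, 17.2, 17.4, 13.97 and 15.4 in WT libraries. Bag1, a chaperone regulator, averaged 228 ± 45.5 scaled TPM in KO and 22.6 ± 4.40 in WT, and Rala, a small GTPase, 97.9 ± 7.96 scaled TPM in KO and 9.66 ± 3.77 in WT. Among the genes named, Scand1, Taf10, Plbd2, Rab5if, Lamp1, Gas6, Npc1, Hexa, Psme1, Ctsb, Ctsd, Tm7sf2, Ethe1, Fdps, Irf1, Qpctl, Junb, Lbr, Pdia6, Cxcl10, Apoc2, Tagln, Grn, Csf1r, Dusp1 and Glb1 share exon bases with a neighbouring protein-coding gene, as do the pairs Cdc20 and Elovl1, and Ercc1 and Cd3eap, with each other. Gclm, Hsp90b1 and Ctsl share them with a pseudogene. Lrp10, Bcl3, Tomm40, Jun, Jund, Psmb8, Slc2a1, Fcgr2b, Mgll, Nectin2, Ctsl, Atp6v0b and Il1b overlap antisense genes, and whether the counting used strand is not given in the sources used here, so these levels are less certain.

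The gains went with the base composition of the transcript's start. Tested genes were divided into 5 groups by the GC content of the first 300 bases of a transcript chosen for each gene. This was the longest annotated protein-coding transcript, or the longest of any type where a gene had none. In the group with the highest GC (69.7% to 86.7% GC, 1793 genes) the median log2 fold change was 0.56, with 1123 genes higher (62.6%) and 236 lower (13.2%). From the lowest GC upwards, in the other groups the medians were -0.108, -0.104, -0.0932 and -0.00974. Of the 907 genes higher by more than 2-fold, 599 (66%) were in the highest GC group, against 83 of the 739 lower by more than 2-fold (11.2%) and 14.4% of the other genes. Library by library, genes of that group differed from the other genes by -0.359 to -0.155 log2 units in KO and by -1.19 to -0.878 in WT, and the 5 untreated Het libraries stood with KO, at -0.415 to -0.106. Of the 12 steepest gains 9 lay in the highest GC group, namely Gclm, 0610012G03Rik, Taf10, Plbd2, Tmem221, H2-Ke6, Rab5if, Rnf128 and Bag1. Other genes named above in that group that rose were Lamp1, Pparg, Irf2bp1, Bloc1s3, Lrp10, Gas6, Naglu, Edem1, Bcl3, Relb, Tomm40, Tfeb, Rxrb, Myo5a, Mark4, Insig1, Mylip, Atp6v1b2, Calm3, Igfbp4, Mcoln1 and Jund, and those that fell were Meis3, Fasn, Nectin2 and Col5a1. Lpl, Cd36, Lipa, Plin2, Cd68, Tyrobp, Trem2, Abcg1 and Vsig4 were not in it. Among the gene lists, centring left the lipoprotein genes at 9 higher and 6 lower, the LXR genes at 9 and 6, sterol synthesis enzymes at 15 and 2, lipid droplet genes at 10 and 6, interferon-stimulated genes at 9 and 3, Alzheimer risk genes at 8 and 10, the SREBP list at 7 and 4 (median 0.13) and the NRF2 genes at 10 and 8, while cytokines stood at 5 higher and 17 lower, chemokines at 2 and 16, replication genes at 1 and 23 and fibroblast markers at 1 and 12. Whether base composition contributed to the gains was not tested. With every library centred within 20 bins of this GC content, 5895 genes were called, of which 4834 were called in the same direction before centring. Of the 5861 calls without centring 929 were lost and 251 changed sign, and 571 of the 907 genes still rose by more than 2-fold while 667 of the 739 still fell by more than 2-fold.

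**Figure D4:**
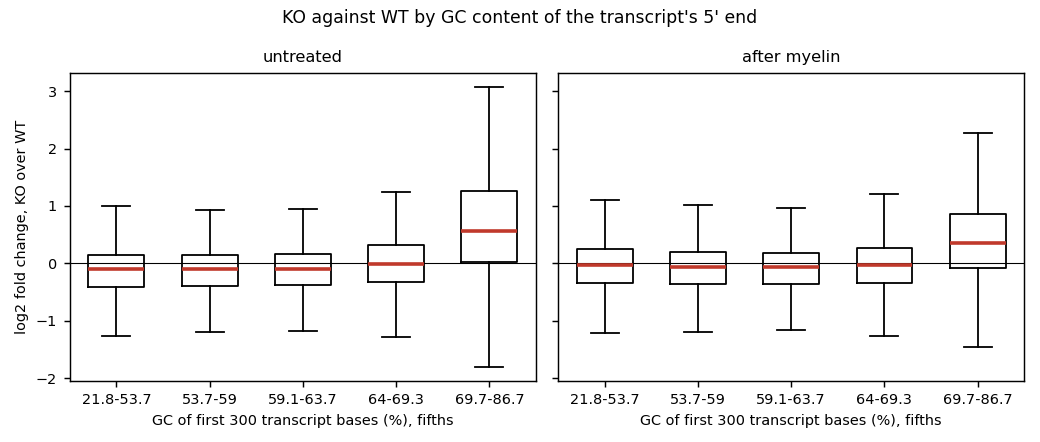
Log2 fold change of KO over WT in 5 groups of tested genes by the GC content of the first 300 transcript bases, untreated (left) and after myelin (right); boxes span the quartiles, the red line is the median and whiskers reach 1.5 times the box height. The median stands above 0 in the highest GC group, at 0.56 untreated and 0.345 after myelin.

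The labels do not say whether the KO and WT libraries given myelin came from other mice or cultures than the untreated ones. They come from the same KO and WT lines, and the untreated test did not use them. There 4732 of 9373 genes were called (50.5%), 2296 higher (24.5%) and 2436 lower (26%), and on the coding total alone, without trimmed-mean factors, 2626 were higher and 2077 lower. Of the 5861 untreated calls, 3994 (68.1%) were called in the same direction after myelin and 13 in the opposite one. Of the 1646 that changed by more than 2-fold, 1535 (93.3%) were called in the same direction. Of the 14 fibroblast markers tested, 13 fell after myelin as well (median log2 fold change -3.55). Because the lines are the same, this agreement cannot tell the loss of Apoe from other differences between the lines. After myelin the log2 fold changes were -1.96 for Apoc1, -2.70 for Apoc2, -2.10 for Il1b and -2.92 for Il6, while Lpl, Cd36, Lamp1 and Trem2 rose by 2.15, 1.78, 2.62 and 0.84. Tomm40 and Jun did not pass after myelin (log2 0.43 and 0.28, adjusted p = 0.176 and 0.519). Nor did the Apoe neighbours Clasrp, Mark4, Calm3 and Slc1a5 (log2 0.44, 0.38, 0.17 and 0.016, limma adjusted p = 0.109, 0.0563, 0.202 and 0.963). Tmem160, Irf2bp1, Bloc1s3, Inafm1, Kcnn4, Bcl3, Relb, Strn4, Ppp1r37 and Bbc3 of that neighbourhood passed and were higher in KO. P2ry13, lower in KO at rest, stood at -0.10. The difference between the 2 effects, tested as an interaction over 20 libraries, passed in 151 genes (1.61%), and 2130 had an unadjusted p under 0.05. That count rests on single libraries, being 4 without WT untreated library 4 and 722 without WT myelin library 2.

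Het microglia carry 1 disrupted Apoe allele and are labelled with the model of the KO cells, so their levels are set beside KO and WT here, on a scaling of all 47 libraries. Of the 5 untreated Het libraries, 2 had under 6% of TPM in coding genes, and means are over the other 3, with the range of all 5 given after them. The comparison shares its KO and WT libraries with the one above, so only levels are given, for genes picked after their values were seen. Apoe averaged 71.4 ± 6.04 scaled TPM in KO, 48900.0 ± 2937 in the 3 Het libraries and 55077 ± 6592 in WT (SD; Het range 17404 to 77094), and the Het mean lay inside the WT range. Apoc2 averaged 25.9 ± 4.92 scaled TPM in KO, 131 ± 4.54 in the 3 Het libraries and 168 ± 21.9 in WT (Het range 127 to 206). Apoc1 averaged 23.4 ± 5.23 scaled TPM in KO, 89.3 ± 52.2 in the 3 Het libraries and 92.7 ± 9.82 in WT (Het range 54.6 to 149). For all 3 genes of the cluster every Het library lay above every KO library. Cd36 averaged 787 ± 80.8 scaled TPM in KO, 328 ± 87.7 in the 3 Het libraries and 257 ± 18.1 in WT (Het range 140.0 to 415). Its Het libraries all lay below the KO libraries. For Lpl the mean of the 3 Het libraries, 1464 ± 266, lay between 2231 in KO and 587 in WT. The Lpl range of all 5 Het libraries, 416 to 1764, reached below every WT library.

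Inflammatory genes divided when read this way. Il1b averaged 185 ± 23.2 scaled TPM in KO, 528 ± 165 in the 3 Het libraries and 800.5 ± 139 in WT (Het range 338 to 637), and Tnf averaged 43.3 ± 2.44 scaled TPM in KO, 224 ± 18.1 in the 3 Het libraries and 111 ± 11.8 in WT (Het range 116 to 245). Nfkbia averaged 356 ± 14.8 scaled TPM in KO, 1094 ± 162 in the 3 Het libraries and 716 ± 51.8 in WT (Het range 735 to 1277). Every Het library lay above every KO library for these 3 genes, and Tnf and Nfkbia means were higher in Het than in WT. Cxcl2, Ccl5, Socs3 and the cystine importer Slc7a11 in Het also lay above KO in all 5 libraries. Their Het ranges were 224 to 418, 217 to 553, 35.8 to 77.4 and 35.3 to 69.8 beside KO means of 74.3, 103, 12.8 and 17.5. Ccrl2 did not lie above KO in every Het library. It ranged from 42.7 to 183 in Het, with a mean of 166 in the 3 Het libraries, beside 45.3 to 53.1 in KO. Other genes stood near KO. Ptgs2 averaged 13.7 ± 3.10 scaled TPM in KO, 19.03 ± 6.55 in the 3 Het libraries and 183 ± 18.2 in WT (Het range 7.84 to 26.2), and Il6 averaged 0.411 ± 0.516 scaled TPM in KO, 0.875 ± 0.232 in the 3 Het libraries and 15.2 ± 1.55 in WT (Het range 0.539 to 4.62). Timp1, Acta2 and Rrm2 in Het, at 276 to 818, 93.2 to 251 and 7.09 to 14.8, lay below every WT library, and Lamp1 and Gclm, both of the highest GC group, at 378 to 958 and 144 to 445, lay above every WT library; the part of base composition in this was not tested. Fibroblast marker sums were likewise low in Het, at 289 to 664 scaled TPM, beside 311 to 1232 in KO and 3055 to 3759 in WT.

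**Figure D5:**
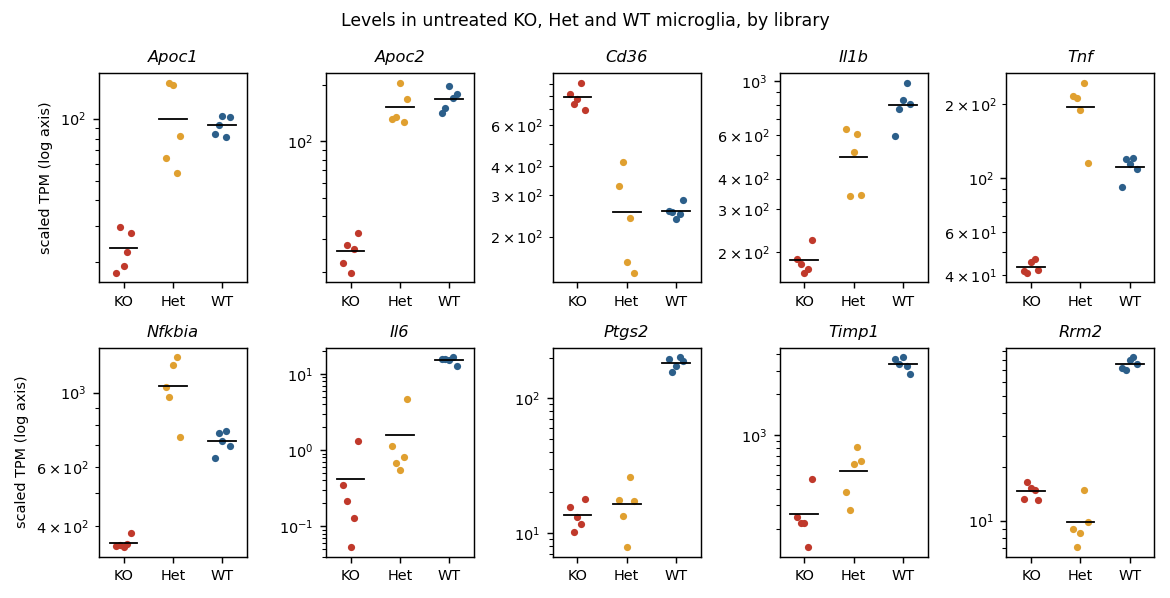
Scaled TPM (log axis, scaling of all 47 libraries) of 10 genes in the untreated KO, Het and WT libraries; each point is a library and the bar is the mean. Het lies above KO for Apoc1, Apoc2, Il1b, Tnf and Nfkbia, below KO for Cd36, and near KO for Ptgs2, Timp1 and Rrm2.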

How the data were processed

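Polyadenylated RNA went into SMARTer low-input libraries, per the labels. The authors deposited TPM values for 53697 genes, and each library sums to 1000000. Salmon 0.13.1, limma 3.40.6 and the build mm10 are named, without their roles, in the submitters' processing notes. Read depth is unknown, so no counting interval is given.

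Each column was rescaled to the total of protein-coding genes without mitochondrial ones, and then by trimmed-mean factors (30% of ratios, 5% of levels). The test kept 9249 protein-coding and 124 lincRNA genes that reached 5 scaled TPM in 5 or more of the 10 libraries. limma 3.58.1 in R 4.3.3 (trend, no weights) was run on log2(scaled TPM + 1) of the 5 KO and 5 WT untreated libraries, which understates the change of low genes, with Benjamini-Hochberg adjustment over all 9373 genes at 0.05. The test step, without the rescaling, was checked on simulated data with independent noise. Apoe and the coding share were tested by exact permutation. Gene positions came from GENCODE vM21 and promoters from RefSeq.

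Named genes were Apoe, the 12 steepest changes each way, up to 4 called members of each list with the smallest p, and every called gene within 5 Mb of Apoe. The members and lists were chosen with earlier results of these data known. Alternatives covered scaling, pseudocount, filter, weights, the libraries in the fit, left-out libraries and centring by GC content. Het levels come from a joint scaling of all 47 libraries. The APOE3 and APOE4 libraries entered only that scaling and the alternative fits with all 47 libraries or with the 38 libraries without Het. No comparison of their own is given. Some list members and neighbours of Apoe are counted but not reported by name here.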

Additional observations from a re-analysis of the deposited data

Results flagged for a closer look

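Of 378 groups of 5 libraries examined, 24 had 1 library farther from the others than Dixon's 95% criterion allows, and chance flags about 1 in 20. KO library 5 stood apart with high connective tissue genes, at 179 scaled TPM of Col3a1, 155 of Dcn, 391 of Sparc and 24.9 of Cthrc1, and its summed fibroblast markers reached 1231.9. The same library held 130.4 of Btg2 and 24.1 of Psat1. KO library 4 stood apart with 148 of Bag1, 5.19 of Bloc1s3, 31.2 of Stat2 and 103.5 of Taf10, and KO library 1 with 65.3 of Strn4. WT library 5 stood apart with 493 of C3ar1, 111 of Dcn, 214 of Elovl1, 12.9 of Il6, 1514 of Plin2, 986 of Sparc and 39.8 of Tmem119. WT library 4 did so with 14740 of Spp1, WT library 1 with 72.1 of Calm3, 49.8 of Meis3 and 16.4 of Rala, and WT library 3 with 1.14 of Bloc1s3.

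In 9 genes named in the Results, and in Olig1 named below, the KO effect after myelin differed from that at rest in the interaction test. The effect was higher after myelin, on the log2 scale, by 0.52 for Fcgr2b, 0.42 for Hsp90b1, 0.98 for P2ry13, 0.50 for Pdia4 and 0.41 for Pdia6, all lower in KO at rest. It changed by -1.22 for Gclm, -1.35 for H2-Ke6, -2.06 for Scand1, -1.26 for Tmem160 and -1.09 for Olig1, all higher in KO at rest. The number of genes passing this test rests on single libraries.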

How the results depend on the processing

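The count of genes called at rest was 5861 and lay between 4364 and 7515 under all alternatives. The highest counts, 7211 with a filter of 1 scaled TPM and 7515 without a filter, came from testing more genes. The other alternatives gave 4364 to 6126, and leaving out single libraries gave 5577 to 5770. Without Apoe in the total, 2352 genes rose and 3643 fell, with a median log2 fold change of -0.103. After myelin the count was 4242 to 4896 when single libraries were left out. The Apoe change ran from -9.63 to -9.50 without single libraries, and the coding share difference from -3.34 to -1.24. Replicate numbers did not pair the libraries (correlation of same-numbered KO and WT libraries -0.122 to 0.15, with 2 of 5 KO libraries closest to their own number, and untreated with myelin libraries -0.245 to 0.106 in KO and -0.0327 to 0.309 in WT), and the replicate block gave 5807 calls at rest and 4416 after myelin. The interaction count of 151 moved to 87 with the coding total alone, to 34 with a replicate block within genotype, and to between 4 and 722 without single libraries. The fit with all 47 libraries and no weights ended the calls of 35 of 240 genes, Ctsb, Ctsd, Ctsl, Gpnmb, C3ar1, Elovl1, Ebp and Fdps among them. Centring by GC content turned Calm3 to -0.11 and Srebf2 to -0.27, with and without the block. It ended the calls of 9 of the 240 genes, Ercc1, Prkd2 and Zfp235 among them, and brought 5 past the threshold, Hmox1, Csf1r and C1qa among these at 0.22, 0.23 and 0.21. The cause was not tested. TPM keeps no depth, so low genes such as Il6 in KO carry an unknown counting error.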

Other observations

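Fatty acid oxidation differed little between the genotypes. Of 13 tested genes of PPAR signalling and fatty acid oxidation, 4 rose and 2 fell (median log2 fold change 0.0221). Besides Pparg, those that rose were Acadm and Acadl, which open the oxidation of medium and long chains, at 0.37 and 0.45, and Ucp2, a mitochondrial carrier, at 0.44. Of 4 tested myelin and oligodendrocyte genes 3 rose and 1 fell. Olig1, a lineage factor, stood at 1.54, Mbp, a myelin protein, at 0.43 and Cspg4, a progenitor and pericyte marker, at -1.78. Summed levels of that list overlapped, at 92.4 to 104.3 scaled TPM in KO libraries and 86.1 to 104.3 in WT libraries. These genes were picked after their values were seen.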
